A study of Mus musculus with 4 samples.

Results

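Genes by which retinal ganglion cells are commonly recognised were followed across the cell classes of the mouse retina. They comprised the RNA-binding protein genes Rbpms and Rbpms2, the transcription factor genes Pou4f1 and Pou4f2, the glutamate transporter gene Slc17a6, the surface protein gene Thy1, the synuclein genes Sncg and Sncb, and the growth cone gene Gap43. They were chosen by their names, with earlier results of these data known. All 9 of the 9 were found among 13452 Ensembl genes, with 19 of the 44325 isoforms that the deposited table lists. The mice were male, wild-type and of the C57BL6/J strain. Their retinas were dissociated with papain, and 4 single-cell cDNA libraries were read on a nanopore instrument, which sequences whole cDNA molecules. Of these libraries, 2 had no enrichment (1 from postnatal day 40, the other with no age given), 1 carried the label CD73 enrichment (postnatal week 8) and 1 the label CD90.2 enrichment (postnatal month 4). Per the protocol, CD73-positive photoreceptors were removed and CD90.2-positive cells were kept, both with magnetic beads, whereas the design text of the series names fluorescence-activated sorting.

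Retinal ganglion cells are the output neurons of the retina. Their axons form the optic nerve, and they release glutamate onto targets in the brain. RBPMS and RBPMS2 are RNA-binding proteins used as pan-ganglion-cell markers. POU4F1 and POU4F2, also called Brn3a and Brn3b, are POU-domain transcription factors that act in ganglion cell differentiation and survival. SLC17A6, also called VGLUT2, loads glutamate into synaptic vesicles. THY1 is the glycolipid-anchored surface protein also known as CD90, synucleins are small presynaptic proteins, and GAP43 is an axon growth protein.

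The counts were given for 6 classes, namely amacrine, bipolar, cone, Müller glia, rod and ganglion cells, with no column per library. Each class was therefore 1 pooled value, no test between classes was possible, and the intervals below cover counting error only. The ganglion cell column was the smallest, with 3509890 counts, and the other columns held between 6133094 (Müller glia) and 55437340 (rods). Levels are counts scaled to 1000000 in each column (CPM), and a count of 3 corresponded to 0.0541 CPM in rods and 0.855 CPM in ganglion cells. In pooled columns, fewer cells with a transcript and less of it per cell cannot be told apart. In the ganglion cell column, the summed level of 6 rod markers was 0 CPM, of 6 cone markers 0.285 CPM, of 6 bipolar markers 1.99 CPM, of 6 amacrine markers 19.7 CPM and of 6 Müller glia markers 68.7 CPM. Of these markers, 6 rod, 5 cone, 4 bipolar, 1 amacrine and 3 Müller glia genes were listed at 0, and that column stood apart in its zeros. Of 1851 genes with at least 10000 counts in all, 73 were listed at 0 in ganglion cells, against 1 each for Müller glia and cones and 0 for each of the other 3 classes. Gnb1, a G protein subunit that many cell types use, was listed at 0 in ganglion cells and at 13.2 CPM or more in the other classes. A zero in the ganglion cell column is therefore written as listed at 0, and no limit was drawn from it. The part of this column's making in the folds below was not tested.

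The sequences that carry the structural results are given first. Rbpms2 lies at chr9:65629648-65660528 on the plus strand of GRCm38 (mm10). Its most abundant unannotated isoform had 3 exons and joined the first exon of the 8-exon annotated transcript directly to its seventh. The joined frame ran over chr9:65630829-65659197 and spliced to 132 bases, 5′ to 3′, with the bases after the new junction in capitals.
Rbpms2 3-exon reading frame: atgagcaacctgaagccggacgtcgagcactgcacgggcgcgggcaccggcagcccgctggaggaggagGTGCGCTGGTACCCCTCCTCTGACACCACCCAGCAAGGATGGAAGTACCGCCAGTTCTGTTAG
This isoform lacked 489 coding bases, from 5 exons. The last of these exons, chr9:65651547-65651704, has 158 bases, and capitals mark the 114 of them that a second unannotated isoform also lacked.
Rbpms2 sixth exon: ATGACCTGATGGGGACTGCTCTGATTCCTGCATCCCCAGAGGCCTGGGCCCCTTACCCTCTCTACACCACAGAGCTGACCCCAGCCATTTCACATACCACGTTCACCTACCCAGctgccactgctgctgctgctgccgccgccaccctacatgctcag
The 489 bases are 163 codons and the 114 bases are 38 codons, so both losses kept the reading frame. The 163 codons included those of the RNA recognition motif, the domain by which the protein binds RNA.

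Among transcription factor genes, Pou4f1 (chr14:104461676-104467999, minus strand) was counted through 1 unannotated transcript model only. That model held the last 344 of 1266 coding bases. The last 300 of them, at chr14:104465729-104466028, are shown 5′ to 3′ with the stop codon in capitals.
Pou4f1 last coding bases in the model: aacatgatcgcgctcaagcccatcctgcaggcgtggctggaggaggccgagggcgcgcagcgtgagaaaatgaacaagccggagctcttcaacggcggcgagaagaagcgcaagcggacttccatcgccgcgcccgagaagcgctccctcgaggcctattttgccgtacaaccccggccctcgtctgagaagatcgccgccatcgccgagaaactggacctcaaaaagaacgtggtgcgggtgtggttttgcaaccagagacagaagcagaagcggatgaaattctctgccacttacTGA
These bases encode the C-terminal region of the protein, where the POU homeodomain lies.

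Sncg and Sncb differed in the class of their highest level, and their first coding exons are shown to let them be compared base by base. Capitals in the Sncb line mark the bases that differ from Sncg, whose exon lay at chr14:34374460-34374580 on the minus strand. The Sncb exon lay at chr13:54765563-54765683, also on the minus strand.
Sncg first coding exon: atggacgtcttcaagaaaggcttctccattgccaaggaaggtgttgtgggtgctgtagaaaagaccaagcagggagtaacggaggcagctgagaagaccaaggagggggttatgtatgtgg
Sncb first coding exon: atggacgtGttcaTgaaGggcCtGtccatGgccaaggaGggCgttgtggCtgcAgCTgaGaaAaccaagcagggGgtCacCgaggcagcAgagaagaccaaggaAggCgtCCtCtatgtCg
Of the 121 bases, 97 were identical (80.2%), and 24 differed.

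Ganglion cells had the highest level of 8 of the 9 genes, and 6 of the 9 were at least 4-fold above the next class. Over all 13393 Ensembl genes with at least 10 counts, the ganglion cell column was highest in 13.2% and at least 4-fold above the next in 2.11%. A stricter minimum of 100 counts kept 7 of the 9 genes, since Pou4f1 had 76 counts and Pou4f2 had 48. Of these 7, ganglion cells were highest in 6 and at least 4-fold above the next class in 4, against 15.0% and 1.27% of 9868 genes. The 9 genes are common ganglion cell markers, chosen with earlier results of these data known, and how cells were typed is not given. Their distance from all genes is therefore no independent evidence. The genes past 4-fold were Rbpms, Rbpms2, Pou4f1, Pou4f2, Slc17a6 and Sncg. Thy1 and Gap43 were highest in ganglion cells at a smaller distance from amacrine cells, and Sncb was highest in amacrine cells.

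**Figure D1:**
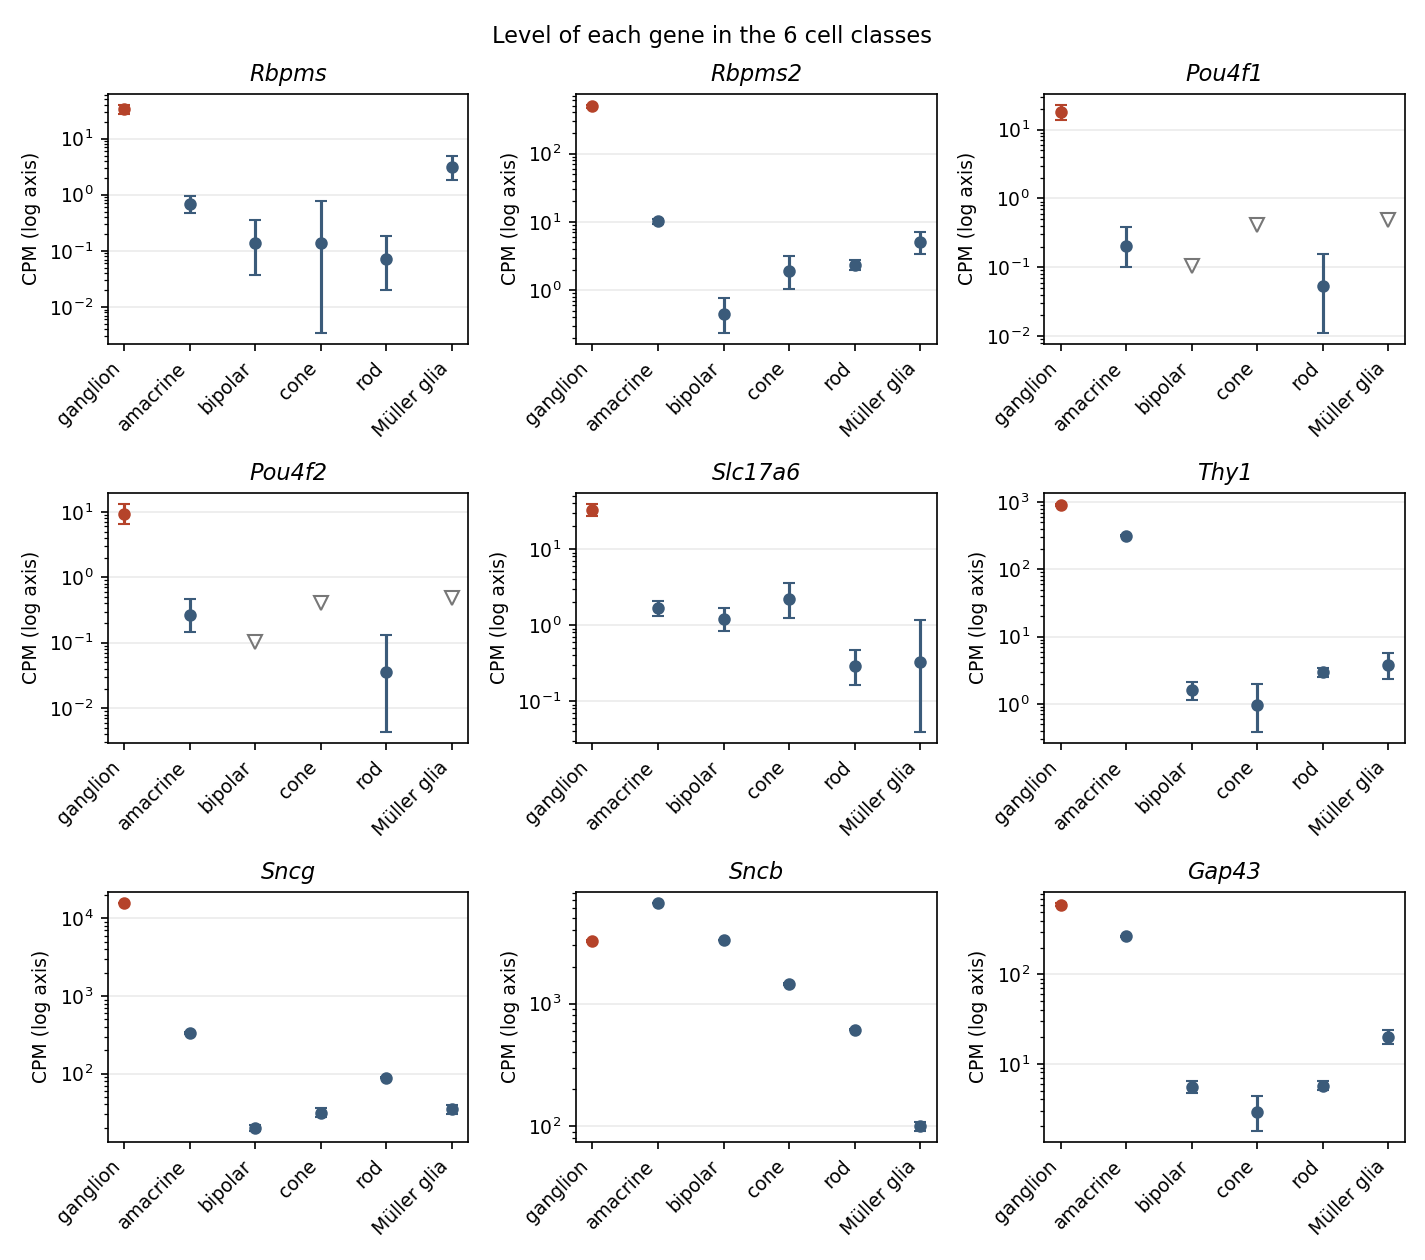
Level of each of the 9 genes in the 6 cell classes, in CPM on a log axis, 1 panel per gene. Points are the deposited column's level, bars are exact 95% Poisson intervals for counting error, and open triangles mark a count of 0, drawn at the level of 3 counts. The ganglion cell point is the highest in 8 panels, and amacrine cells are highest in the Sncb panel.

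The Brn3 factors had few counts, and most were in ganglion cells (82.9% for Pou4f1 and 68.8% for Pou4f2). Pou4f1 had 63 counts in ganglion cells (17.9 CPM, 13.8 to 23.0), 10 in amacrine cells (0.207 CPM), 3 in rods (0.0541 CPM) and 0 in the remaining 3 classes. Ganglion cells were 86.6-fold above amacrine cells (95% interval 44.1 to 189). The amacrine and rod levels were not apart in their intervals (ratio 3.83, 0.986 to 21.7). The columns with no counts were set to the level of 3 counts. On that footing the ganglion cell level was 174-fold that of bipolar cells, 43.7-fold that of cones and 36.7-fold that of the Müller column. These folds leave out the counting error of ganglion cells and are no lower bounds.

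Pou4f2, on chr8:78433010-78436645, showed the same order with fewer counts. It had 33 counts in ganglion cells (9.40 CPM, 6.47 to 13.2), 13 in amacrine cells (0.269 CPM), 2 in rods (0.0361 CPM) and 0 in the other 3 classes. The ganglion cell level was 34.9-fold above that of amacrine cells (17.9 to 72.2). Amacrine cells were 7.47-fold above rods (1.69 to 68.2). The folds over the level of 3 counts in bipolar cells, cones and Müller glia were 90.9, 22.9 and 19.2, again without the counting error of ganglion cells.

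No transcript model of either gene reached the start codon. The Pou4f1 model had 2 exons joined by an annotated intron and began 1927 bases downstream of the RefSeq start. The Pou4f2 model bore the annotated identifier with 2 exons, held 971 of 1236 coding bases, and began 508 bases downstream of the RefSeq start. The promoters of this pair, 250 bases before the RefSeq start on GRCm38.p6, are shown because the models stop short of them. They lie at chr14:104468000-104468249 and chr8:78436648-78436897, and capitals mark each match to GGGCGG on either strand.
Pou4f1 promoter: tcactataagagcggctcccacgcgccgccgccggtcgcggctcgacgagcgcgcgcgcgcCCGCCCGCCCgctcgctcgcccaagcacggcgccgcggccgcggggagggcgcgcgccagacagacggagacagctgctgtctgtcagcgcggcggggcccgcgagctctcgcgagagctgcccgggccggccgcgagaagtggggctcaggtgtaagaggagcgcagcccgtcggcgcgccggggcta
Pou4f2 promoter: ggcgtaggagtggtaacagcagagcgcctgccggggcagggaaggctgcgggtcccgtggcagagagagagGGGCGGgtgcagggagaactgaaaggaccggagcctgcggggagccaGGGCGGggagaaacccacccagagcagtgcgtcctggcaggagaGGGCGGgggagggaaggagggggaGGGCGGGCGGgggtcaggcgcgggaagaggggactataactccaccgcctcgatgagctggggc
The Pou4f1 window held 2 matches and the Pou4f2 window 5, some of which overlap. Promoter windows were at hand for 6 of the 9 genes, 7 windows in all, and 6 of the 7 held GGGCGG, against 32.7% of 32851 promoters. TATAAA was in none of the 7 windows and in 12.4% of all promoters. ATTAAT was in 1 of the 7, the second start of Slc17a6, and in 4.39% of all promoters, and CANNTG was in 5 of the 7 and in 66.2%. Each motif was searched on both strands in the 250 bases before the start, and a match is a description of the letters only. Rbpms, Thy1 and Gap43 were without a promoter window.

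Other transcription factor genes of ganglion cells mostly fell below the minimum. Of 28 listed, 19 were in the table and 5 had at least 100 counts, none of them Pou4f1 or Pou4f2. Of these 5, 2 were highest in ganglion cells and 1, Pou4f3, was at least 4-fold above the next class. Among all genes with at least 100 counts, these shares were 15.0% and 1.27%. Pou4f3, the other Brn3 gene, had 127 counts and 36.2 CPM in ganglion cells, 194-fold above amacrine cells at 0.187 CPM. Isl1, a LIM-homeodomain factor of ganglion and ON bipolar cells, was highest in bipolar cells at 10.6 CPM and was listed at 0 in ganglion cells. Onecut2 was highest in cones at 2.19 CPM.

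The RNA-binding protein genes were both highest in ganglion cells, and past 4-fold over the next class. Rbpms2 had 1726 counts in ganglion cells (492 CPM, 469 to 515), 493 in amacrine cells (10.2 CPM), 31 in Müller glia (5.05 CPM), 131 in rods (2.36 CPM), 14 in cones (1.92 CPM) and 13 in bipolar cells (0.448 CPM). The ganglion cell level was 48.1-fold above that of amacrine cells (43.5 to 53.3). All neighbours in this order were apart in their intervals except rods and cones (ratio 1.23, 0.709 to 2.32).

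Rbpms, on chr8:33782643-33929863, was lower in counts and had Müller glia rather than amacrine cells as the next class. It had 117 counts in ganglion cells (33.3 CPM, 27.6 to 39.9), 19 in Müller glia (3.10 CPM) and 33 in amacrine cells (0.684 CPM), and the levels were 0.138 CPM (4 counts) for bipolar cells, 0.137 CPM (1 count) for cones and 0.0722 CPM (4 counts) for rods. Ganglion cells were 10.8-fold above Müller glia (6.59 to 18.5) and 48.7-fold above amacrine cells (32.9 to 74.1). The fold over the next class was 18.6 with isoforms of at least 10 counts over all classes. Ganglion cells supplied 65.7% of all Rbpms counts, and the isoforms removed by this minimum were listed at 0 there, so this rise was built in. With the most abundant isoform only, the fold was 30.5 over amacrine cells (23 counts), since that isoform had 0 counts in Müller glia. The fold was 0 with annotated isoforms only, which were listed at 0 in ganglion cells. Amacrine cells were apart from bipolar cells (ratio 4.96, 1.76 to 19.3), whereas bipolar cells were not apart from cones, nor cones from rods. The Müller glia column also held pericyte markers: 3 of 3 were highest there, with a summed level of 355 CPM against 1.62 to 12.8 CPM in the amacrine, bipolar, cone and rod columns. Pigment epithelium markers summed to 8826 CPM there, against 18.6 to 62.4 CPM in those columns, microglia markers to 1623 CPM, against 47.3 to 697 CPM, and astrocyte markers to 90.8 CPM, against 0.601 to 3.52 CPM. Their part in the Rbpms level of Müller glia was not tested.

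Rbpms had annotated isoforms, but none of its ganglion cell counts were on them. In ganglion cells, 117 of its 117 counts were on 4 unannotated isoforms, with 51, 28, 23 and 15 counts. Both annotated isoforms were listed at 0, and no interval is given because it would draw a limit from those zeros. Over all genes, 405 of 4662 Ensembl genes with at least 20 ganglion cell counts (8.69%) had only unannotated counts there. The isoform with 51 counts made up 43.6% of Rbpms in ganglion cells and 69.7% in amacrine cells (23 of 33 counts). Müller glia differed: 11 of 19 counts (57.9%, 33.5% to 79.7%) were on ENSMUST00000033995.13, whose frame has 220 codons, 6 were on an unannotated 7-exon isoform and 2 on ENSMUST00000053251.11. That 7-exon isoform lacked a coding exon of 151 bases, a length that is not a multiple of 3, and its frame ended after 107 codons.

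Transcript models existed only for isoforms with counts in rods, so 1 of the 4 ganglion cell isoforms of Rbpms could be placed. It had 4 exons over chr8:33782089-33796918 and followed annotated introns. Of the reference transcript ENSMUST00000053251.11, it held the last 63 of 594 coding bases and not the start codon. The coding bases of other Rbpms transcripts were not compared. A single-exon transcript at a locus that the table names by position, chr8:33928140-33929563 on the same strand, covered 88 bases of the annotated first exon and ran 1336 bases beyond it. It held 66 coding bases with the start codon. This transcript had 98 counts in ganglion cells (27.9 CPM, 22.7 to 34.0), 17 in Müller glia (2.77 CPM), 5 in amacrine cells, 1 in rods and 0 in bipolar cells and cones. With it added, Rbpms had 215 counts and 61.3 CPM in ganglion cells.

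Rbpms2 was divided between 3 isoforms, and the division differed between classes. In ganglion cells, the annotated 8-exon isoform of 206 codons had 793 of 1726 counts (45.9%, 43.6% to 48.3%). The 3-exon isoform, with a frame of 43 codons, had 705 counts (40.8%, 38.5% to 43.2%), and the 8-exon isoform of 168 codons had 228 (13.2%). In amacrine cells the 3-exon isoform was the most abundant, with 244 of 493 counts (49.5%, 45.0% to 54.0%), ahead of the annotated isoform with 183 (37.1%). The intervals of the 3-exon share in ganglion and amacrine cells did not overlap. Elsewhere its share was 26.7% in rods (35 of 131 counts), 6.45% in Müller glia (2 of 31), 2 of 13 counts in the bipolar column and 0 of 14 in the cone column.

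**Figure D2:**
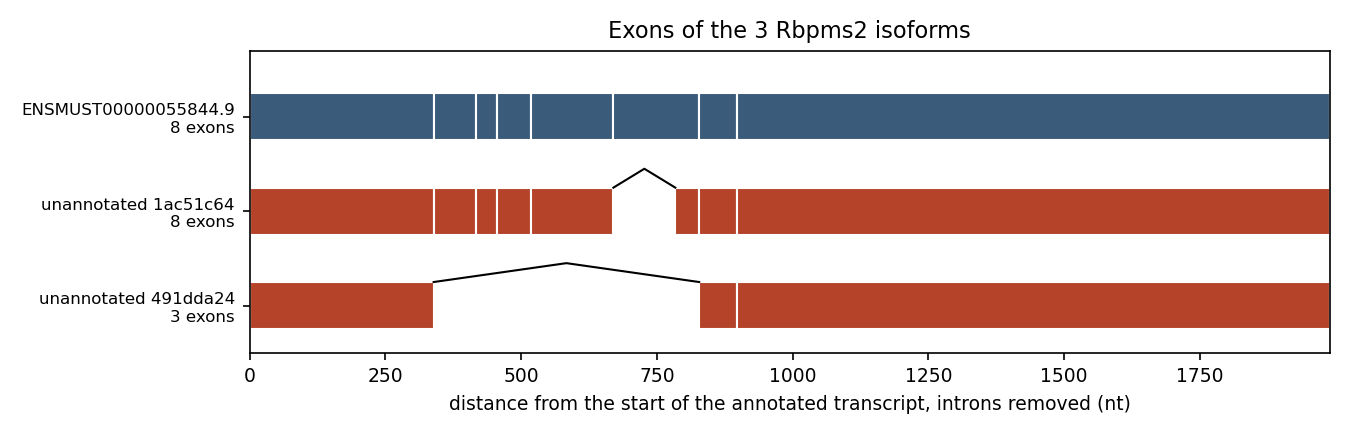
Exons of the 3 Rbpms2 isoforms, drawn along the annotated 8-exon transcript with introns removed, in nucleotides from its start. Boxes are exons and peaked lines are sequence that an isoform lacks. The 3-exon isoform lacks 5 whole exons and the second unannotated isoform lacks 114 bases.

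The 3-exon isoform carried 1 splice junction, chr9:65630898-65659134, that is not in GENCODE M21, while both of its splice sites are. Of 49 distinct junctions in the models of the 9 genes, 47 were at the same coordinates in M21, and the remaining new junction belonged to the 7-exon isoform of Rbpms. The dominant isoform of Rbpms2 switched between amacrine cells and Müller glia, by a rule that asked for at least 20 counts in each class and a difference of at least 50 percentage points in share. The annotated share was 37.1% in amacrine cells and 93.5% in Müller glia (78.6% to 99.2%), a difference of 56.4 points. The part that the other cell types' markers in the Müller glia column have in this difference was not tested. Among all genes compared, 9.26% of 3984 switched between this pair of classes. It was 1 of 25 pairs of classes that could be compared, in 4 of the 9 genes. Of the 25 pairs, 15 were of Sncb, whose isoform shares varied little. None of the compared pairs with ganglion cells switched in these 4 genes. Rbpms was not compared between ganglion cells and Müller glia, where it had 19 counts, and this pair switched with a minimum of 10 counts. Over all genes, the switched share was 8.19% between ganglion and amacrine cells, 12.7% for bipolar cells, 11.7% for cones, 13.1% for Müller glia and 13.3% for rods.

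**Figure D3:**
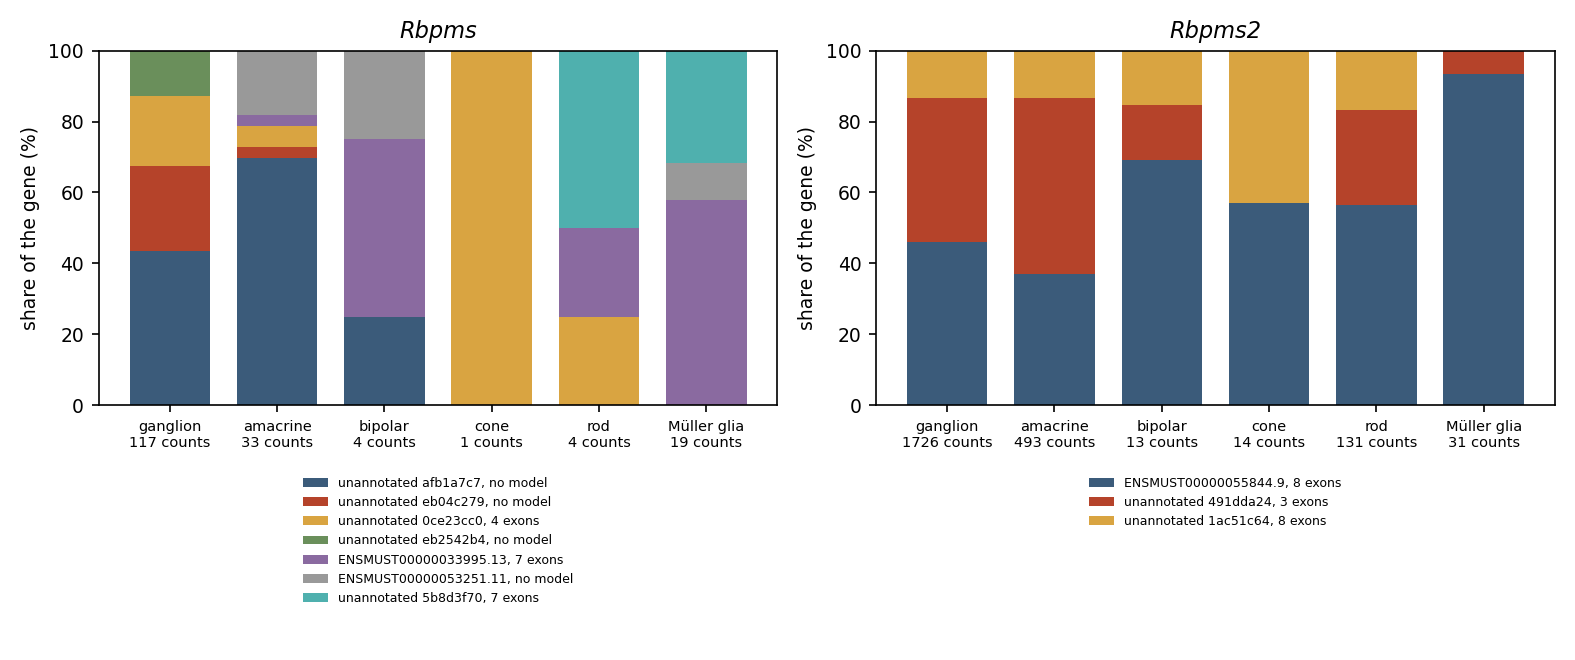
Share of each isoform in the counts of Rbpms and Rbpms2, in percent, by class, with the gene's counts under each bar. Müller glia carry annotated Rbpms isoforms that are listed at 0 in ganglion cells, and the 3-exon Rbpms2 isoform is the largest share in amacrine cells only.

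Both genes were followed beside other neuronal RNA-binding protein genes, of which 8 had at least 100 counts. Of these 8, 4 were highest in ganglion cells and 1, Elavl2, was at least 4-fold above the next class, at 41.6 CPM and 9.74-fold above amacrine cells. The shares of all genes with at least 100 counts were 15.0% and 1.27%. Rbfox1, a splicing factor, was highest in amacrine cells at 121 CPM against 46.4 CPM in ganglion cells, and Elavl3 was highest there at 56.7 CPM against 38.2 CPM. Ptbp2 was highest in rods at 18.7 CPM, and Celf4 in amacrine cells at 10.4 CPM.

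Slc17a6, on chr7:51622006-51671119, was higher in ganglion cells than in any other class, with cones next. It had 115 counts in ganglion cells (32.8 CPM, 27.1 to 39.3), 16 in cones (2.19 CPM), 81 in amacrine cells (1.68 CPM), 35 in bipolar cells (1.21 CPM), 2 in Müller glia (0.326 CPM) and 16 in rods (0.289 CPM). The fold was 15.0 over cones (8.83 to 27.1) and 19.5 over amacrine cells (14.6 to 26.3). No classes next to each other in this order below ganglion cells were apart in their intervals. Between classes further along the order, the rod interval (0.165 to 0.469 CPM) lay below 3 others. These were bipolar (0.840 to 1.68 CPM), amacrine (1.33 to 2.09 CPM) and cone cells (1.25 to 3.56 CPM). The annotated 12-exon isoform, with its full frame of 582 codons, had 104 of the 115 counts, and an unannotated isoform without a model had 11 (9.57%, 4.87% to 16.5%). Of the unannotated one, amacrine cells had 2 of 81 counts, and the other classes had 0.

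Slc17a6 was the only gene of vesicular glutamate transport and glutamate handling that was highest in ganglion cells, among 8 with at least 100 counts. Of all genes with that minimum, 15.0% were highest in ganglion cells. Slc17a7, the transporter VGLUT1 of photoreceptors and bipolar cells, was highest in cones at 13.8 CPM, followed by bipolar cells at 12.7 CPM and rods at 12.3 CPM, and was listed at 0 in ganglion cells. Slc17a8 was likewise listed at 0 in ganglion cells and was highest in Müller glia at 12.7 CPM. Glul, the glutamine synthetase of Müller glia, was highest there at 2049 CPM. Slc38a1, Slc1a2 and Slc1a3 had their highest level in cones, cones and Müller glia.

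Sncg, on chr14:34370274-34374789, had the most ganglion cell counts of the 9 genes and was highest there by a wide margin. It had 55248 counts in ganglion cells (15741 CPM, 15610 to 15873), 16088 in amacrine cells (333 CPM), 4927 in rods (88.9 CPM), 213 in Müller glia (34.7 CPM), 228 in cones (31.2 CPM) and 577 in bipolar cells (19.9 CPM). Ganglion cells were 47.2-fold above amacrine cells (46.4 to 48.1). Only Müller glia and cones were not apart (ratio 1.11, 0.919 to 1.35).

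Sncb, on chr13:54758860-54766595, had a different order. Amacrine cells had 317469 counts (6579.9 CPM), bipolar cells 95405 (3289 CPM), ganglion cells 11406 (3249.7 CPM), cones 10578 (1448 CPM), rods 34097 (615 CPM) and Müller glia 613 (99.95 CPM). Ganglion cells were at 0.494 of the amacrine level (0.485 to 0.503). Bipolar and ganglion cells were not apart (ratio 1.01, 0.993 to 1.03), and every other pair of neighbours was.

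The isoforms of Sncg and Sncb varied little. Sncg had 1 annotated isoform with 5 exons and 123 codons. Sncb had 2 annotated isoforms of 133 codons each with the same coding bases and different first exons. The less abundant one, ENSMUST00000134110.1, had 2.48% of Sncb in ganglion cells (283 of 11406 counts, 2.20% to 2.78%). Its share in the other classes ran from 1.14% in Müller glia to 3.13% in cones, with 1.88% in rods, 2.15% in bipolar and 2.20% in amacrine cells.

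Thy1, on chr9:44043384-44048579, was highest in ganglion cells and second in amacrine cells. It had 3194 counts in ganglion cells (910 CPM, 879 to 942), 15301 in amacrine cells (317 CPM), 23 in Müller glia (3.75 CPM), 163 in rods (2.94 CPM), 46 in bipolar cells (1.59 CPM) and 7 in cones (0.958 CPM). The fold over amacrine cells was 2.87 (2.76 to 2.98), and amacrine cells were in turn 84.6-fold above Müller glia (56.3 to 133). Thy1 encodes the protein on which the CD90.2 library was selected. The columns do not separate that library, and the part of the selection in the Thy1 level was not tested. Amacrine cells, the larger column, supplied 81.7% of all Thy1 counts.

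Gap43, on chr16:42248442-42340651, was ordered much as Thy1. It had 2128 counts in ganglion cells (606 CPM, 581 to 633), 12894 in amacrine cells (267 CPM), 123 in Müller glia (20.1 CPM), 315 in rods (5.68 CPM), 159 in bipolar cells (5.48 CPM) and 21 in cones (2.87 CPM). Ganglion cells were 2.27-fold above amacrine cells (2.17 to 2.38), and amacrine cells were 13.3-fold above Müller glia (11.2 to 16.1). Only rods and bipolar cells were not apart. Thy1 and Gap43 each had 1 annotated isoform, with the full frame of 162 and 227 codons.

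**Figure D4:**
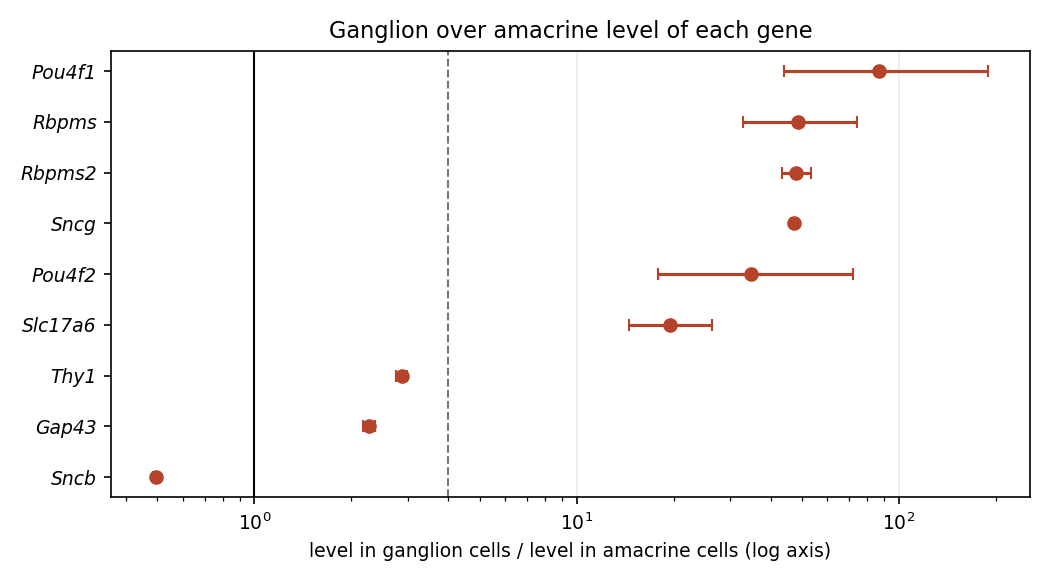
Level in ganglion cells divided by the level in amacrine cells for each of the 9 genes, on a log axis. Bars are 95% intervals for counting error, the solid line marks equal levels and the dashed line a ratio of 4. Pou4f1, Rbpms, Rbpms2, Sncg, Pou4f2 and Slc17a6 lie between 19.5 and 86.6, Thy1 and Gap43 at 2.87 and 2.27, and Sncb at 0.494.

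The amacrine level of the 6 genes past 4-fold ran, as a share of their ganglion cell level, from 1.16% in Pou4f1 to 5.12% in Slc17a6, with a median of 2.10%. For Thy1 it was 34.8% and for Gap43 44.1%. Among 12 other listed genes that were at least 4-fold higher in ganglion cells, it ran from 0.516% to 21.1%, with a median of 7.70%. The 4-fold rule itself caps this share, so these ranges, and their distance from Thy1 and Gap43, are a description only. The origin of the amacrine counts of these genes was not tested.

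Axon and cytoskeleton genes were often highest in ganglion cells. Of 18 with at least 100 counts besides Gap43, 10 were highest there and 4 were at least 4-fold above the next class. Over all genes with at least 100 counts, the shares were 15.0% and 1.27%, and the list was drawn from genes known in ganglion cells. Nrn1, a small glycolipid-anchored neuritin, was at 2301 CPM in ganglion cells and 49.8-fold above amacrine cells. Nefl and Nefm, which encode neurofilament subunits of axons, were at 1024.5 and 65.5 CPM, or 25.5-fold and 11.5-fold above amacrine cells. Nefh, the gene of a further neurofilament subunit, was highest in cones at 16.4 CPM and was at 3.13 CPM in ganglion cells. Prph, an intermediate filament gene, was at 34.8 CPM and 140-fold above the next class. Others did not follow: Marcksl1 and Stmn4 were highest in amacrine cells, at 336 and 418 CPM against 307 and 405 CPM in ganglion cells. Their ganglion to amacrine ratios, 0.915 and 0.969, were near equality. The 2 other scalings raised such ratios by 0.11 and 0.19 on the log2 scale, so this order depends on the scaling. The microtubule-associated protein gene Mapt was highest in bipolar cells at 198 CPM and was at 3.99 CPM in ganglion cells, and Map1b was highest in cones at 64.3 CPM and was listed at 0 in ganglion cells.

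Of 7 glycolipid-anchored surface protein genes with at least 100 counts besides Thy1, 2 were highest in ganglion cells and 1, Nrn1, was past 4-fold. Prnp, Negr1, Ntm and Ncam1 had their highest level in cones, cones, cones and Müller glia, while Cntn1 was highest in Müller glia. Of 16 other ganglion cell genes, 12 were highest there and 5 were past 4-fold. For both lists, the shares of all genes with at least 100 counts were 15.0% and 1.27%. Calb2, the calcium-binding protein calretinin, reached 23012 CPM (28.7-fold), Pvalb, the calcium-binding parvalbumin, 537 CPM (15.0-fold), Kcnip4 166 CPM (6.44-fold) and Chrna6, a nicotinic receptor subunit, 73.5 CPM (9.77-fold). Tac1 was highest in amacrine cells at 493 CPM against 232 CPM in ganglion cells, Spp1 and Kcng4 in bipolar cells and Jam2 in rods. None of 8 neurotrophin receptor and injury genes was highest in ganglion cells, against 15.0% of all genes with at least 100 counts. A list of 8 is too short to be set apart from that share. Ddit3, a stress-response factor, was highest in amacrine cells at 698 CPM against 291 CPM in ganglion cells. Jun and Atf3 were highest in Müller glia at 422 and 109 CPM, with Atf3 listed at 0 in ganglion cells. Ntrk2, the BDNF receptor, was highest in bipolar cells at 85.8 CPM.

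**Figure D5:**
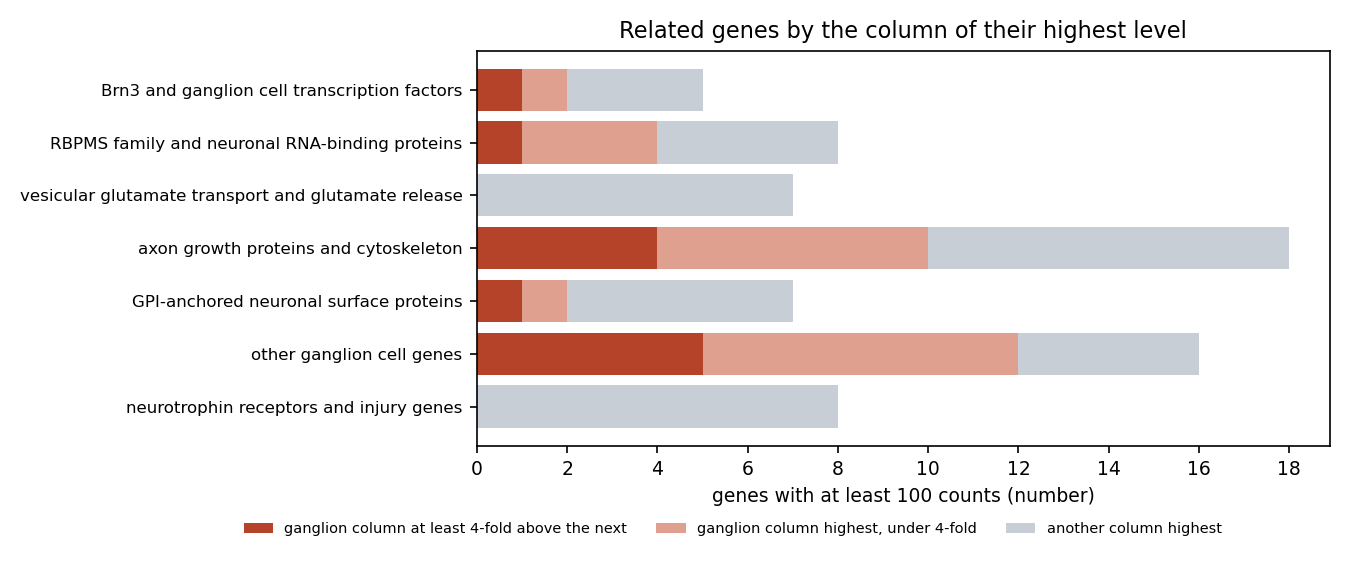
Number of related genes with at least 100 counts in each list, without the 9 genes, by the class of their highest level. Colours separate genes at least 4-fold above the next class in ganglion cells, genes highest there by less, and genes highest elsewhere. In total 30 of 69 distinct genes were highest in ganglion cells and 12 of them were past 4-fold, with 5 of the 12 among other ganglion cell genes.

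Across all lists, 69 distinct genes other than the 9 had at least 100 counts, and 30 were highest in ganglion cells, against 15.0% of all genes. Of the 69, 12 were past 4-fold, against 1.27% of all genes. Lists were drawn from genes known in ganglion cells, so their direction is no independent evidence.

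The genes nearest to each member were found among 9863 symbols with at least 100 counts, by the distance between their shares of summed CPM over the 6 classes, and the likeness is a description over 6 points that share columns and depth. Rbpms2, Sncg and Pou4f2 lay near one another: Sncg was second nearest to Rbpms2 (distance 0.0112) and nearest to Pou4f2 (0.00807), with Il12a nearest to Rbpms2 (0.00592) and Fam110c nearest to Sncg (0.00663). The other genes among the 3 nearest included Fam110c for Rbpms2 and Pou4f2, Calb2 for Pou4f2 and Atp6ap1l for Sncg. Pou4f1 was nearest to Ctxn3 (0.00595), Prr5 and Atp6ap1l, all with at least 97.9% of their summed CPM in ganglion cells. Rbpms was nearest to Stbd1 (0.0174), Myl2 and Lypd6, and Slc17a6 to Apbb2 (0.0379), Ppp1r21 and Rprm.

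The remaining genes had neighbours with a large amacrine share. Thy1 was nearest to Stmn2 (0.0207), Rbfox3 and Adap1, which had 72.1%, 73.6% and 74.3% of their summed CPM in ganglion cells and 26.2%, 23.7% and 23.9% in amacrine cells. Gap43 was nearest to Tenm1 (0.0175), Chac1 and Plppr1, with 28.4% to 31.0% in amacrine cells. Sncb was nearest to Cstad (0.0422), Ndufb10 and Ncoa7, all highest in amacrine cells.

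Over the 9 genes, 10 of 19 isoforms were annotated and 14 had a transcript model. Of the 14 models, 7 held all coding bases of the gene's reference transcript, in 6 of the 9 genes, and 3 lacked the start codon of that transcript. Unannotated isoforms held 1124 of 74030 counts of the 9 genes in ganglion cells (1.52%, 1.43% to 1.61%), a share that Sncg, with 55248 of those counts, sets in large part. By gene, more than 50% of the ganglion cell counts were unannotated in 3 genes, Rbpms, Rbpms2 and Pou4f1, against 15.1% of 4662 genes with at least 20 ganglion cell counts. With parts of an annotated chain of introns counted as annotated, 1 gene, Rbpms, was left. This step could not remove Rbpms. Its isoforms with 51, 28 and 15 of the 117 ganglion cell counts had no model and so stayed unannotated. In Rbpms2 the share was 54.1% in ganglion cells (51.7% to 56.4%), 62.9% in amacrine cells, 43.5% in rods and 6.45% in Müller glia.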

How the data were processed

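Single-cell cDNA of 4 retinal libraries was read by nanopore sequencing, and the authors deposited whole-number counts per isoform in 6 columns of cell classes. Transcript models, which name FLAIR as their source per the file contents, were deposited with 1-based coordinates, and the submitters' processing notes name mm10. How reads became counts, how cells were typed and how doublets were treated is not given in the sources used here, and the columns name no library. The counts were used as deposited; 0 columns were left unused. Isoform counts were summed by gene and scaled to 1000000 per column (CPM). Of 13452 Ensembl genes, 13448 matched a symbol by identifier without its version.

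Calls were rules of size: ganglion cells at least 4-fold above the next class, or a switch of the dominant isoform as described. Intervals are exact at 95% (Poisson for levels, Clopper-Pearson for shares, conditional binomial for ratios), and several reads can come from 1 molecule. The planned rule named the 9 genes, isoforms with at least 10% of a gene, the 3 nearest genes, and up to 4 genes per list that were past 4-fold and up to 4 highest elsewhere. Gnb1 and Nefh were named after their values were seen, and some genes and sequences that the rule would name are not reported here. The 9 genes and the lists were chosen with earlier results of these data known. Models were compared with GENCODE M21, and promoters are from RefSeq (GRCm38.p6). Alternatives were 2 other scalings computed in Python (median of ratios, trimmed mean of M-values), minimums on counts, subsets of isoforms, added loci and 20 draws thinned to 3509890 counts. The rules were tested on simulated data. Python 3.11.15, numpy 2.4.6, pandas 2.3.3 and scipy 1.17.1 were used.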

Additional observations from a re-analysis of the deposited data

Results flagged for a closer look

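A transcript at a locus named by position, outside the gene counts, overlapped the first exon of Rbpms on the same strand. It had 98 counts in the ganglion cell column, above the 3 counts set for a flag. The counts of Rbpms itself in that column were 117. Among such loci with a transcript model, which existed only for isoforms with counts in rods, no other overlapped an exon of the 9 genes on the same strand.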

How the results depend on the processing

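Under 7 alternatives the number of genes at least 4-fold higher in ganglion cells was 6 except with annotated isoforms only, when it was 4: Pou4f1 had no annotated isoform, and Rbpms, listed at 0 in ganglion cells, turned to a ratio of 0 to the next class. Switched pairs numbered 3 with at least 10 counts, the 2 added being Rbpms in Müller glia against amacrine and ganglion cells, and 0 with at least 100 counts. Genes with mostly unannotated ganglion cell counts fell from 3 to 1, Rbpms, when parts of an annotated chain counted as annotated. Rbpms could not fall out, because most of its ganglion cell counts were on isoforms without a model, which stayed unannotated. Genes of the whole table highest in ganglion cells were 836 of 5226 with at least 1000 counts, which is fewer because fewer genes were tested. Relative to the column totals, the trimmed mean of M-values (TMM) raised every ratio of ganglion to amacrine cells by 0.11 on the log2 scale and the median of ratios raised it by 0.19, whereas the latter shifted ratios of ganglion cells to Müller glia by -0.26 and to cones by -0.14. The Rbpms ratio to Müller glia was 8.99 and the Slc17a6 ratio to cones 13.6 under that scaling. Of 62 single-gene ratios, 50 stayed within their counting interval, 11 moved and 1 reversed. Many of the 50 could not move. Subsets of isoforms leave the 5 genes with 1 isoform as they were, and only Rbpms had an added locus. Thinning keeps these ratios apart from sampling, so the tally is a description only. Thinning does not change shares within ganglion cells, by construction. No paired analysis was possible because each class is 1 pooled column, and no library could be left out for the same reason. Depth limits Pou4f1 and Pou4f2 most, with 63 and 33 ganglion cell counts.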

Other observations

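The zeros of the ganglion cell column extended to genes with fewer counts. Of 5226 genes with at least 1000 counts in all, 495 (9.47%) were listed at 0 in ganglion cells, against 50 in Müller glia and 34 in cones, whose columns held 6133094 and 7307134 counts against 3509890. Map1b was among the 495. With at least 100 counts, 2957 of 9868 genes (30.0%) were listed at 0 in ganglion cells, 750 in Müller glia and 720 in cones.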
